A study of Mus musculus with 2 samples.

Results

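The neuregulin and ErbB receptor genes were examined in polyadenylated RNA from mouse hippocampus. The 7 genes were taken by symbol and gene identifier: the neuregulins Nrg1, Nrg2 and Nrg3, and the receptors Erbb2, Erbb3, Erbb4 and Egfr. They are 7 of the 55536 genes in the deposited gene tables, and all of their 41 annotated transcripts were read from the transcript tables. The study holds 1 group of 2 libraries, called biological replicates 1 and 2, each made from 20 ng of RNA by Nextera tagmentation. The tissue, given as a layer of hippocampus, came from C57BL/6 mice of strain B6NCrl aged 6 months, with no treatment or engineered allele stated. The description calls the animals male, while the field for sex was left uncollected. Each library has its own tissue sample, but both carry 1 donor identifier, and the labels do not say whether separate animals were used. With 1 group there is no condition to test. The question open to these data is how strongly each gene and each of its forms is represented, and how far the libraries and 2 quantification programs differ in that.

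Neuregulins are growth factors with an EGF-like domain, made by neurons and other cells mostly as membrane-bound precursors that proteases cut to release or expose the ligand. They bind the extracellular part of ErbB3 or ErbB4, which then pair with each other or with ErbB2, and the kinase of the pair starts the Ras and phosphoinositide 3-kinase cascades. ErbB2 has no known ligand of its own and ErbB3 has little kinase activity, while EGFR is bound by EGF-family ligands and not by the neuregulins. In rodent hippocampus ErbB4 is known above all from inhibitory interneurons, and ErbB3 from cells of the oligodendrocyte lineage.

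Depth was close in both libraries, with 38921662 expected reads on genes in replicate 1 and 39499350 in replicate 2 by the first program. A count of 0 allows up to 3 reads per library, and intervals and limits cover counting error only. Defining markers of hippocampal cells were present in both libraries: Camk2a of glutamatergic neurons had 1408 TPM in replicate 1 and 1681 TPM in replicate 2, Gad1 of interneurons 124 and 121 TPM, and Mbp of oligodendrocytes 2141 and 2435 TPM. TPM is a level scaled for transcript length and depth, so that genes can be compared. The libraries stood apart in choroid plexus RNA. All 8 of 8 choroid plexus markers were at least 2-fold higher in replicate 1, as were 1.98% of all genes with a mean count of at least 50. The levels of the 8 markers summed to 15279 TPM in replicate 1, against 130.5 TPM for replicate 2. The transthyretin gene Ttr led them with 14956 and 116.6 TPM, and Aqp1, a water channel gene, was the lowest with 1.78 and 0.01 TPM.

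Erbb4 had the highest level of the 7 genes, followed by Nrg3. Erbb4 (ENSMUSG00000062209.15, chr1:68032186-69108059 on mm10, minus strand) had 4.48 TPM in replicate 1 and 4.97 TPM in replicate 2, from 1090 and 1162 expected reads. Nrg3 (ENSMUSG00000041014.17, chr14:38368952-39473088, minus strand) had 2.93 and 2.74 TPM. Nrg1 (ENSMUSG00000062991.7, chr8:31814551-32884029, minus strand) had 2.19 and 1.35 TPM. The receptor genes below them were Egfr (ENSMUSG00000020122.16, chr11:16752203-16918158, plus strand) with 1.56 and 1.5 TPM, and Erbb2 (ENSMUSG00000062312.5, chr11:98412470-98437716, plus strand) with 0.97 and 1.57 TPM. Erbb3 (ENSMUSG00000018166.8, chr10:128567523-128589652, minus strand) had 1.16 and 1.07 TPM, and Nrg2 (ENSMUSG00000060275.13, on chromosome 18) had 0.28 and 1.03 TPM. All are low beside the 16720 genes with at least 10 reads in both libraries, for which the median level was 7.49 TPM. Even Erbb4 stood above no more than 40.9% of those genes, and Nrg2 above 10.8%.

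In this order the 2 values of Erbb4 did not overlap those of Nrg3, nor those of Nrg3 the values of Nrg1. The gap between Erbb4 and Nrg3 rests on Erbb4 transcripts without a complete coding sequence. Counting only transcripts with a complete coding sequence, Erbb4 had 2.72 TPM in replicate 1 and 2.9 TPM in replicate 2. Nrg3 then had 2.88 and 2.7 TPM, so their order turned between the libraries. At gene level, Nrg1 overlapped Egfr, Egfr overlapped Erbb2 and Erbb2 overlapped Erbb3, so neighbours among these 4 genes did not differ beyond their spread. Erbb3 and Nrg2 were apart by a narrow margin, with the lower Erbb3 value at 1.07 TPM and the higher Nrg2 value at 1.03 TPM. Erbb4 held 33.01% of the summed TPM of the 7 genes in replicate 1 and 34.9% in replicate 2, a mean of 34.0% ± 1.35 (SD, n = 2). Its share of their expected reads was larger, at 47.8% ± 0.608 (SD, n = 2), since counts are not divided by its long transcripts. The 3 ligand genes together had 5.40 TPM in replicate 1 and 5.12 TPM in replicate 2, and the 4 receptor genes 8.17 and 9.11 TPM. The ligands thus made 39.8% and 36.0% of the members' TPM.

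**Figure D1:**
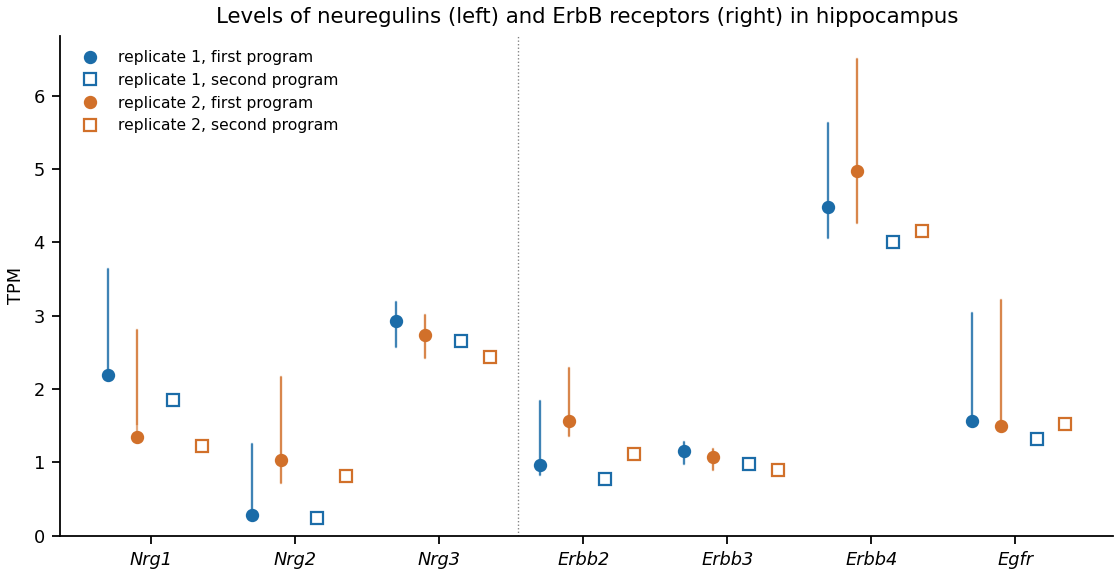
Levels in TPM (y axis) of the 3 neuregulin genes and the 4 receptor genes (x axis) in replicate 1 and replicate 2. Filled circles are the first program with the interval it reports (level of confidence not stated), and open squares are the second program. Erbb4 lies highest in all 4 readings, and the 2 readings of Nrg2 by the first program, 0.28 and 1.03 TPM, lie far apart.

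The first program also reports an interval for each TPM value, and 3 of the 14 member values lay outside their own. Nrg1 in replicate 2 had 1.35 TPM against bounds of 1.52 and 2.80 TPM, Nrg2 in replicate 1 had 0.28 TPM against 0.339 and 1.24 TPM, and Egfr in replicate 2 had 1.5 TPM against 1.52 and 3.22 TPM. Among all genes of at least 1 TPM such a value was found for 11.6% in replicate 1 and 10.7% in replicate 2. Of the 12 member values of at least 1 TPM, 2 did so.

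Nrg3, whose product binds ErbB4, had the highest level of the 3 neuregulin genes and the smallest spread between the libraries among them. It had 332 expected reads in replicate 1 and 324 in replicate 2. Nrg3-201, which encodes 713 amino acids, took 91.8% of the gene's TPM in replicate 1 and 95.6% in replicate 2, and 93.4% and 95.2% by the second program. It is the only annotated Nrg3 transcript with a cassette exon of 72 bases, which holds 24 codons. The exon is shown because its presence separates the main transcript from the others. It lies at chr14:38371277-38371348 on the minus strand. Capitals mark the exon and lower case 12 spliced bases of each neighbouring exon, from the M21 transcript sequences.
Nrg3 cassette exon: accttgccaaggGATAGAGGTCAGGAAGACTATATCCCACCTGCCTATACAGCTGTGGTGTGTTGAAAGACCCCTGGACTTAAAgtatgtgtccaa
Transcripts without this exon were read differently by the programs. Nrg3-203, of 689 amino acids, had 12.3 expected reads in replicate 1 and 0 in replicate 2 by the first program, and 0 in both by the second. Nrg3-202, of 697 amino acids, had 0 and 5.16 expected reads by the first program and 13.7 and 6.26 estimated reads by the second. All 3 are complete coding transcripts, and together they made 98.6% and 98.5% of Nrg3 TPM.

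Nrg1 is the neuregulin with the most annotated forms, 18 of the 41 transcripts. It had 143.8 expected reads in replicate 1 and 121 in replicate 2, and 9 of its transcripts had 0 reads in both libraries by the first program. Forms of Nrg1 differ at the end of the EGF-like domain, where either an alpha or a beta exon is used; the beta form is the one known to dominate in brain and to bind the receptors more tightly. The exons lie at chr8:31838261-31838328 (alpha, 68 bases) and chr8:31837670-31837728 (beta, 59 bases), both on the minus strand, and are shown because they separate these forms. Capitals mark the exon and lower case 12 spliced bases on each side.
Nrg1 alpha exon: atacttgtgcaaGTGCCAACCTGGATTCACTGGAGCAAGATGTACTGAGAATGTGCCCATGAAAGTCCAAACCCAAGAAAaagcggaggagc
Nrg1 beta exon: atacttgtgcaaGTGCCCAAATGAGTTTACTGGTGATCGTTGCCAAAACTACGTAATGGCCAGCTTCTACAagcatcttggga
Aligned with gaps allowed, the beta exon shares 37 of its 59 bases with the alpha exon. Transcripts with the beta exon took 88.9% of Nrg1 TPM in replicate 1 and 97.8% in replicate 2, from 132.5 and 119.0 expected reads. This beta share counts Nrg1-204, a retained-intron transcript with no annotated coding sequence, which held 37.8% and 39.3% of Nrg1 TPM. It is thus not a share of coding beta forms. Those with the alpha exon had 9.17 expected reads in replicate 1 and 0 in replicate 2, which came to 9.22% and 0% of TPM. By the second program the alpha share was 4.92% and 0%, so both programs placed alpha reads in replicate 1 and none in replicate 2. With a limit of 3 reads for a count of 0, so small a number says little about the difference.

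The other choice in Nrg1 is at its start. Forms with an immunoglobulin-like domain, types I and II, begin upstream, and type III forms begin at a cysteine-rich exon that keeps the ligand tethered to the membrane. Transcripts with the cysteine-rich exon held 72.4% of Nrg1 TPM in replicate 1 and 49.6% in replicate 2, or 64.5% and 57.2% by the second program. Those with the immunoglobulin exon held 27.6% and 50.4%, or 35.5% and 42.8% by the second program. The cysteine-rich class counts the retained-intron transcripts Nrg1-204 and Nrg1-207, which have no annotated coding sequence. By the first program Nrg1-204 alone held 37.8% and 39.3% of Nrg1 TPM. Nrg1-201, the only complete coding form with that exon given reads by the first program, held 27.2% and 8.15%. The class shares are thus not shares of coding type III forms. By expected reads the order of the 2 classes turned between the libraries, with 80.3 cysteine-rich reads against 63.5 immunoglobulin reads in replicate 1, and 32.6 against 88.4 in replicate 2. The proportion of the classes is therefore not fixed by these libraries.

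Single Nrg1 transcripts moved more than the gene. Nrg1-204, a retained-intron transcript of 1502 bases with no annotated coding sequence, led by TPM in both libraries and both programs, with 37.8% of Nrg1 TPM in replicate 1 and 39.3% in replicate 2 by the first program. By the second its share was 34.6% and 22.9%, and in replicate 2 it was nearly level with Nrg1-203 at 22.7%. By expected reads the leading transcript was Nrg1-203, which encodes 645 amino acids with the immunoglobulin and beta exons, with 44.1 reads in replicate 1 and 63.1 in replicate 2. Nrg1-201, the type III form of 700 amino acids, had 41.4 and 8.01 expected reads by the first program, and 47.6 and 22.4 estimated reads by the second. Nrg1-218, an immunoglobulin form of 652 amino acids, had 4.48 and 25.3 expected reads. So Nrg1-201 was higher in replicate 1 and Nrg1-218 higher in replicate 2. The incomplete transcripts Nrg1-208 and Nrg1-217 had 2.81 and 3.6 expected reads in replicate 1 and 0 in replicate 2. Nrg1-211, a type III form of 483 amino acids, was at 0 in both by the first program and had 7.50 and 22.0 estimated reads by the second. Complete coding transcripts held 48.8% and 58.5% of Nrg1 TPM.

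**Figure D2:**
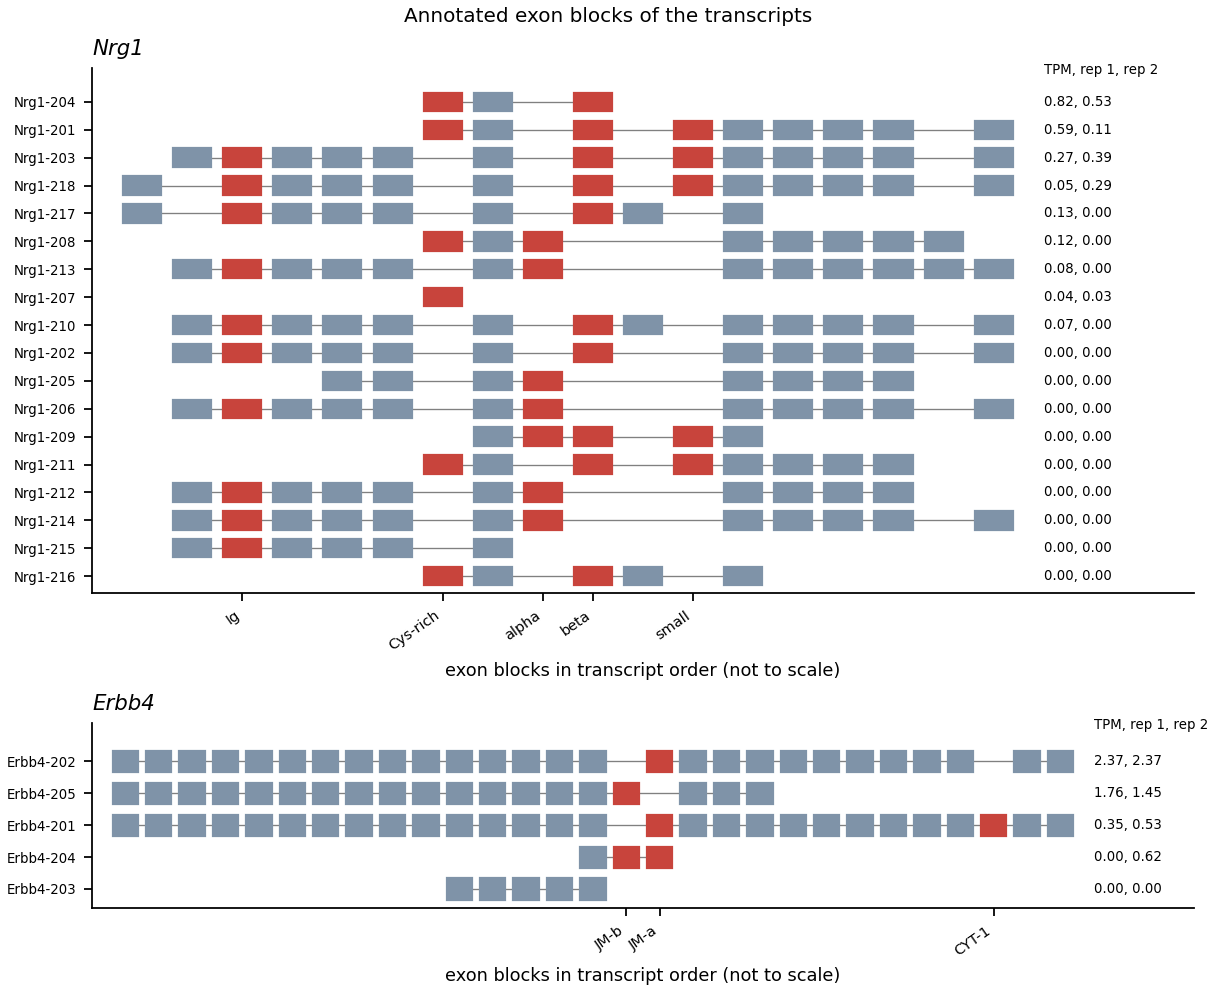
Annotated exon blocks of each Nrg1 transcript (upper panel) and Erbb4 transcript (lower panel), in transcript order from left to right and not to scale. Red blocks are the exons named on the x axis, grey-blue blocks the others, and the numbers at the right are the TPM in replicate 1 and replicate 2 by the first program. The Nrg1 transcripts with the highest TPM hold the beta exon, and Erbb4-205, at 1.76 and 1.45 TPM, holds the JM-b exon and ends early.

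Nrg2, a ligand of ErbB3 and ErbB4, was the least represented member, with 25 expected reads in replicate 1 and 37 in replicate 2. Its TPM differed more than its reads, at 0.28 and 1.03 TPM. In replicate 1 all of the reads were placed on Nrg2-203, which encodes 857 amino acids. In replicate 2 that transcript had 30.5 reads, and the short incomplete transcripts Nrg2-202, of 630 bases, and Nrg2-204, of 328 bases, had 3.94 and 2.56 reads. Those few reads made 25.0% and 42.3% of the gene's TPM there, and the effective length used for the gene was 2905 bases in replicate 1 and 1153 bases in replicate 2. The second program gave the same picture, with 0.243 TPM in replicate 1 and 0.819 in replicate 2. Nrg2-203 alone had 0.28 and 0.34 TPM, so its own level was close in both libraries.

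Erbb4 encodes the receptor that binds neuregulins and signals through its own kinase. Its 2 splice choices decide whether the receptor can be cut at the membrane and which enzymes its tail recruits. The JM-a form has a juxtamembrane stretch that the protease ADAM17 cuts, and the JM-b form has a shorter stretch that is not cut. The JM-a exon lies at chr1:68290243-68290317 (75 bases) and the JM-b exon at chr1:68290439-68290483 (45 bases), both on the minus strand. The CYT-1 form carries an added exon of 48 bases, at chr1:68043908-68043955, with a site for phosphoinositide 3-kinase that CYT-2 lacks. These exons are shown because they define the forms counted here, with the exon in capitals and 12 spliced bases on each side in lower case.
Erbb4 JM-a exon: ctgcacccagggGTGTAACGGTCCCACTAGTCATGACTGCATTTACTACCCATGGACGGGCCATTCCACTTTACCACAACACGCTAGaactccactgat
Erbb4 JM-b exon: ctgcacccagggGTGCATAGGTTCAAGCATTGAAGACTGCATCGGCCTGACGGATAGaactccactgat
Erbb4 CYT-1 exon: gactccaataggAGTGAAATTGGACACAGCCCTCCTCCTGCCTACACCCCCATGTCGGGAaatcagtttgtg
The JM-a exon is longer by 30 bases, or 10 codons, and with gaps allowed the JM-b exon shares 33 of its 45 bases with it. The CYT-1 exon adds 16 codons.

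Erbb4-202, which joins JM-a to CYT-2 and encodes 1292 amino acids, led in both libraries with 2.37 TPM in each. It had 857.5 expected reads in replicate 1 and 874.6 in replicate 2, which were 78.7% and 75.3% of Erbb4 reads. Erbb4-201, which joins JM-a to CYT-1 and encodes 1308 amino acids, had 122.6 and 192.6 expected reads, or 0.35 and 0.53 TPM. Of the TPM of these complete transcripts, CYT-1 made 12.9% in replicate 1 and 18.3% in replicate 2, and 13.1% and 14.97% by the second program. CYT-2 was thus the main tail among complete Erbb4 transcripts in every reading.

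The JM-b exon is annotated in Erbb4-205, whose 3′ end is incomplete after 732 amino acids, and in Erbb4-204, a short transcript without a coding sequence that also holds the JM-a exon. Erbb4-205 had 109.9 expected reads in replicate 1 and 92.8 in replicate 2, and Erbb4-204 had 0 and 2. JM-b transcripts made 39.3% and 41.6% of Erbb4 TPM, or 42.6% and 43.8% by the second program. In replicate 2 Erbb4-204 took 12.5% of Erbb4 TPM from its 2 reads, and it counts in both the JM-a and the JM-b share. Erbb4-205 alone made 39.3% and 29.2%, or 42.6% and 35.9% by the second program. Of expected reads the JM-b transcripts made 10.1% in replicate 1 and 8.16% in replicate 2. The TPM share is higher because Erbb4-205 is annotated with 2196 bases and Erbb4-202 with 12037 bases. With Erbb4-204 counted among its transcripts, JM-a made 60.7% and 70.8% of TPM. Since no complete JM-b transcript is in the annotation, reads from the tail of a JM-b messenger could only be placed on the JM-a transcripts, and the juxtamembrane shares are estimates that rest on that annotation.

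Erbb3, the receptor with little kinase activity of its own, has 1 annotated transcript, Erbb3-201, which encodes 1339 amino acids. It had 208 expected reads in replicate 1 and 196 in replicate 2, and 1.16 and 1.07 TPM, so no choice of transcript enters its level.

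Erbb2, the receptor that serves as partner to the others, was represented mainly by a transcript with no annotated coding sequence. Erbb2-202, annotated as a processed transcript, had 89.2 expected reads in replicate 1 and 123.1 in replicate 2, making 0.68 of 0.97 TPM and 0.92 of 1.57 TPM. The complete coding transcript Erbb2-201, of 1256 amino acids, had 42.8 and 97.9 expected reads, which made 29.9% and 41.4% of the gene's TPM. By the second program its share was 40.7% in replicate 1 and 30.0% in replicate 2, so the programs gave opposite orders of the libraries. Erbb2-202 keeps an intron of 81 bases that Erbb2-201 removes, at chr11:98433050-98433130 on the plus strand, and this intron is shown because it separates the transcripts. Capitals mark the intron and lower case 12 exon bases on each side.
Erbb2 retained intron: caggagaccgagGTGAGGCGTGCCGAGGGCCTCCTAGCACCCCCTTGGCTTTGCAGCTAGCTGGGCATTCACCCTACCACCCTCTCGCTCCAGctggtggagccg
Read in the frame of Erbb2-201, the intron holds 1 stop codon, at codon 16 counted from the one with the first intron base. Most of the remaining sequence is shared by both transcripts, so the split of reads between them is an estimate. The deposited intervals show this, running from 0.162 to 0.911 TPM for Erbb2-202 and from 0.0914 to 0.708 TPM for Erbb2-201 in replicate 1. Erbb2 also overlaps Mien1 on the opposite strand over 9 bases, and Mien1 had 184 and 191 TPM. The use of strand in counting is not given in the sources used here, so reads within those bases cannot be told apart.

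Egfr, the receptor for EGF and related ligands, had 368 expected reads in replicate 1 and 346 in replicate 2. Egfr-201, the complete receptor of 1210 amino acids, had 1.06 and 0.99 TPM, or 68.4% and 65.6% of the gene's TPM. Egfr-202 encodes 655 amino acids and stops before the membrane-spanning part and the kinase, a form known as a truncated, soluble receptor. It had 0.49 and 0.40 TPM by the first program, or 31.6% and 26.5%, and 34.2% and 35.8% by the second. In expected reads it was smaller, with 42.1 and 34.4 reads, or 11.4% and 9.95%. Its last coding exon, at chr11:16887141-16887225 on the plus strand, is shown because it makes the short form. The first 45 bases are shared with Egfr-201, and capitals mark the 40 coding bases past the splice site of Egfr-201.
Egfr-202 last coding exon: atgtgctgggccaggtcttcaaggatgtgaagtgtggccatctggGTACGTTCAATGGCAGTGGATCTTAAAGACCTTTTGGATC
Of the remaining Egfr transcripts, Egfr-203, an incomplete one, had 1.15 expected reads in replicate 2 by the first program, and Egfr-204, with no coding sequence, had 7.48 estimated reads in replicate 2 by the second.

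**Figure D3:**
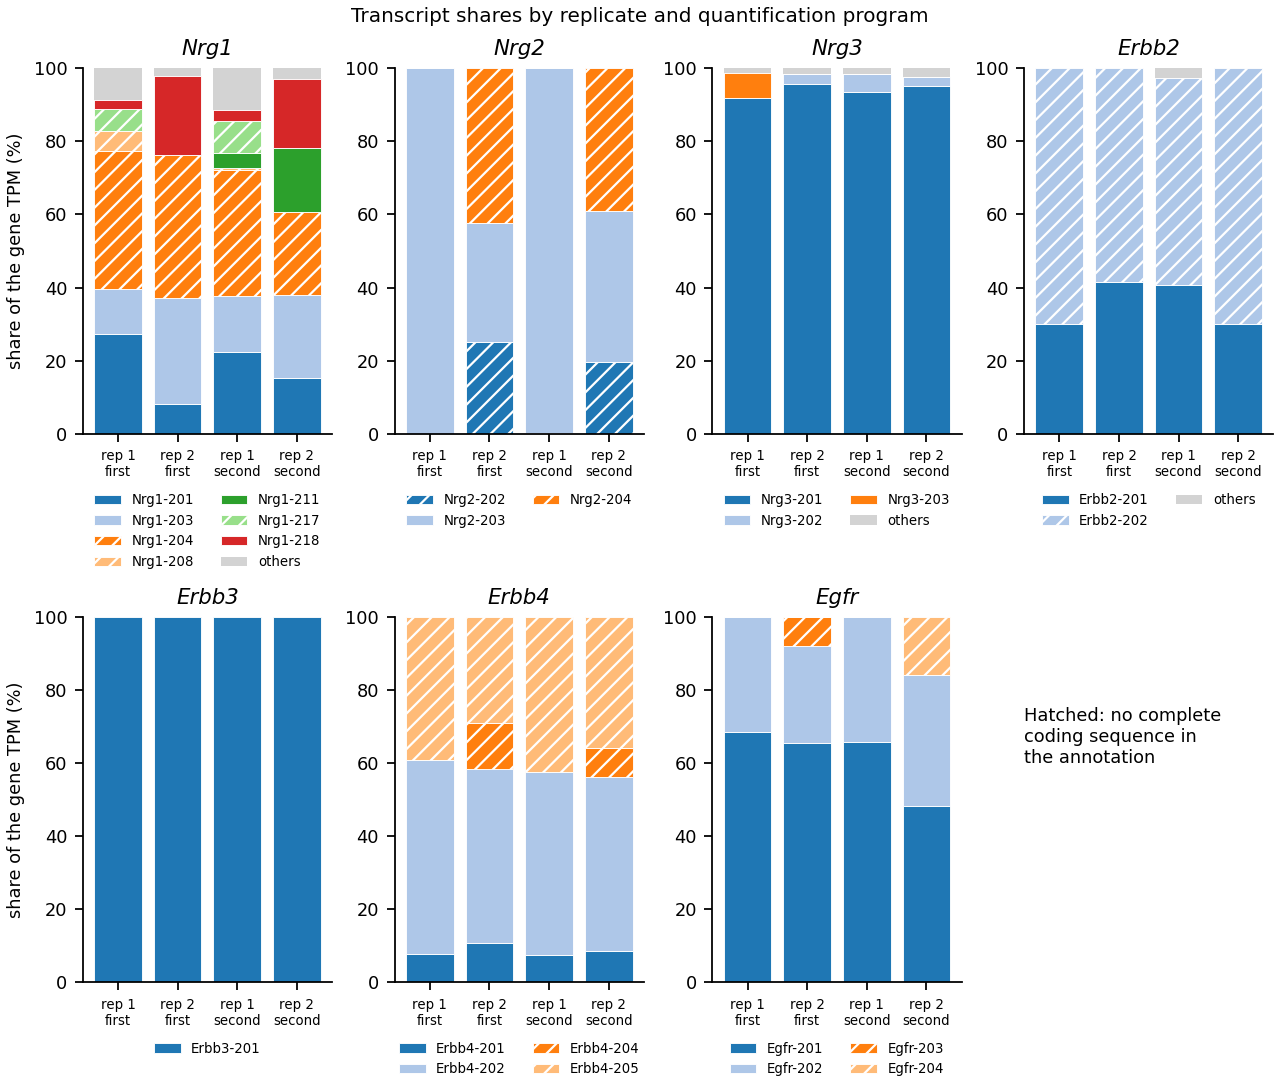
Share of each gene's TPM (y axis, percent) taken by its transcripts in replicate 1 and replicate 2, by the first and then the second program (x axis). Colours are transcripts with at least 5% of the gene in any reading, grey is the sum of the others, and hatching marks transcripts with no complete coding sequence. Nrg3 and Erbb3 are nearly or wholly 1 transcript, while the hatched Erbb2-202 and Nrg1-204 lead their genes.

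By TPM the same transcript led in both libraries for 6 of the 7 genes with the first program and for 7 with the second, Nrg2 being the exception. Of the 41 transcripts, 12 had at least 10 reads in every table and 10 had 0 reads in all of them.

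Between the libraries, none of the 6 members that had a mean of 50 or more reads reached a 2-fold ratio. Over all genes tested, 2.42% did, 340 of 14078. The median log2 ratio of the 6 members, replicate 1 over replicate 2, was 0.07, beside -0.00 over all genes tested, and the ratio uses scaled expected reads. The widest ratio of the 6 was that of Erbb2, with 132 expected reads in replicate 1 and 221 in replicate 2, a log2 ratio of -0.73 with a 95% counting interval of -1.06 to -0.42. It was the only one of the 6 whose interval did not hold 0, as was the case for 52.2% of all genes tested, and its ratio was wider than that of 95.2% of them. The other 5 lay between -0.08 for Erbb4 and 0.26 for Nrg1. Nrg2 fell below the count minimum and had a log2 ratio of -0.55 with an interval of -1.35 to 0.21. With a lower minimum of 10 reads Nrg2 was still inside 2-fold, where 5.27% of genes were past it. On the ratio of TPM, Nrg2 alone passed 2-fold, at -1.57, where 4.9% of all genes did. In bulk tissue, fewer cells of a type and less RNA per cell cannot be told apart. Of the 6 oligodendrocyte precursor markers Olig2 alone was past 2-fold, with 7.70 TPM in replicate 1 and 15.3 in replicate 2. Cspg4, at 4.3 and 5.73 TPM, and Gpr17, at 6.7 and 7.9 TPM, were also lower in replicate 1. Pdgfra, at 9.96 and 9.85 TPM, Lhfpl3, at 8.86 and 8.68 TPM, and C1ql1, at 1.27 and 1.18 TPM, were close to level. None of the 10 oligodendrocyte markers was past 2-fold, and their log2 ratios ran from -0.22 to 0.62. The choroid plexus markers given above were higher in replicate 1, and their part in the ratios of Erbb2 and Nrg2 was not tested.

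**Figure D4:**
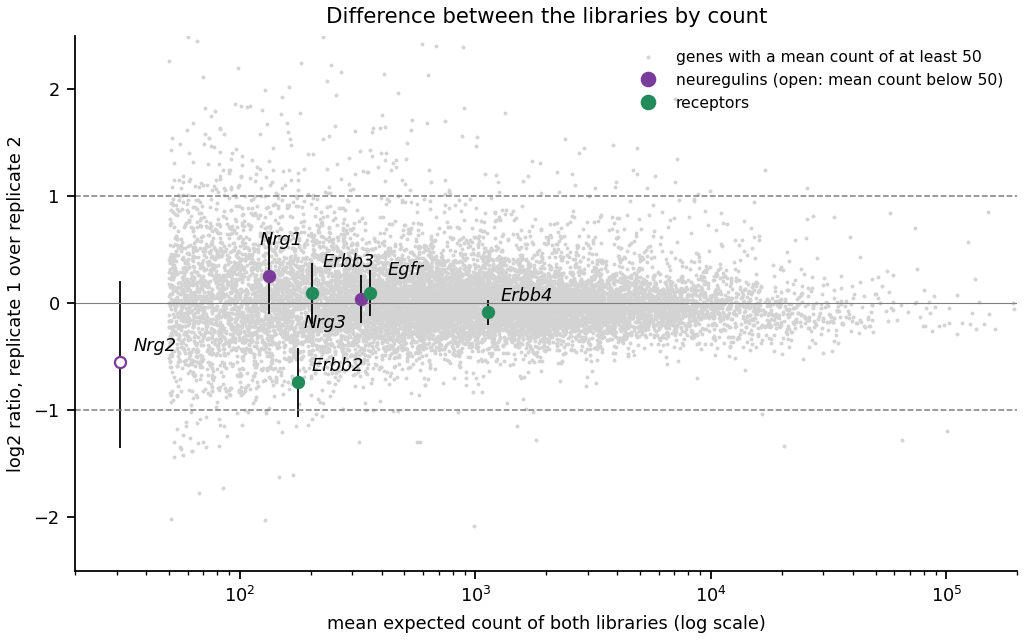
Log2 ratio of expected reads, replicate 1 over replicate 2 (y axis), against the mean expected count on a log scale (x axis). Grey points are genes with a mean count of at least 50, of which 68 lie outside the plotted range, coloured points are the members with 95% counting intervals, and dashed lines mark 2-fold. Erbb2, at -0.73, lies lowest of the 6 members past that minimum, and these all lie within the dashed lines.

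Between the programs, none of the 5 members with enough TPM differed by 2-fold in the same direction in both libraries, against 7.57% of all genes so compared. The first program gave Erbb4 4.48 TPM in replicate 1 and 4.97 TPM in replicate 2, and the second gave 4.01 and 4.16 TPM. For Nrg1 the first gave 2.19 and 1.35 TPM and the second 1.85 and 1.23 TPM. For Egfr the log2 ratio of first over second program was 0.22 in replicate 1 and -0.02 in replicate 2, the only sign that turned among the 7 genes. Across the members the first program's TPM was otherwise higher, by 0.13 to 0.47 on the log2 scale. This offset was not particular to the members. Mbp had 2141 TPM in replicate 1 and 2435 in replicate 2 by the first program, and 1749 and 1958 by the second. Dlg1, given below, went the other way. The second program assigned more reads in all, 1.42 times the first in replicate 1 and 1.41 times in replicate 2. Members with over 100 reads had between 1.16 and 1.49 times as many.

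Other genes of the pathway were grouped into ligands, processing enzymes, partners, downstream kinases and inhibitors. Of 82 listed genes 73 had enough reads, and none was 2-fold higher or lower in replicate 1, where 1.98% and 0.433% of all genes tested were. Their median log2 ratio was -0.00.

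Among 8 other ErbB ligands, 2 had at least 1 TPM in both libraries. Tgfa, a ligand of EGFR, had 10.2 TPM in replicate 1 and 11.8 TPM in replicate 2, and Hbegf, which binds EGFR and ErbB4, had 8.15 and 7.41 TPM. Each was above all 7 members. Nrg4 had 0.29 and 0.58 TPM, and Egf itself 0.49 and 0.23 TPM. Epgn and Ereg had 0 reads in both libraries.

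Of 10 genes for cutting the ligands and receptors, 8 had at least 1 TPM in both libraries. The highest were Ncstn, a subunit of gamma-secretase, with 32.6 TPM in replicate 1 and 33.2 in replicate 2, Bace1, a protease that cuts type III Nrg1, with 26.3 and 24.7 TPM, and the sheddase gene Adam10 with 27.8 and 19.9 TPM. Adam17, the sheddase of JM-a ErbB4, had 3.35 and 2.94 TPM. The lowest was the rhomboid protease gene Rhbdl2 with 0.22 and 0.13 TPM.

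Among 9 scaffold and partner genes, Snap25 of the synaptic vesicle machinery had 1513 TPM in replicate 1 and 1767 TPM in replicate 2. Dlg4, which encodes PSD-95 and binds the tail of ErbB4, had 51.4 and 55.8 TPM, and Dlg2 had 55.42 and 45.03 TPM. Muc1, an epithelial partner of ErbB receptors, was lowest with 1 read in replicate 1 and 0 in replicate 2. Dlg1 was the 1 pathway gene past 2-fold between the programs, with 11.5 TPM in replicate 1 and 10.2 in replicate 2 by the first program, and 68.7 and 58.5 TPM by the second.

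All 36 adaptor and kinase genes had enough reads. Map2k1 and Map2k2 of the ERK cascade had 205 and 87.2 TPM in replicate 1, and 209 and 106 TPM in replicate 2. Shc4, an adaptor gene, was lowest with 1.03 and 0.93 TPM. Limk1 came closest to 2-fold, with 243 reads in replicate 1 and 489 in replicate 2, a log2 ratio of -0.99998, just inside the threshold. Nras, a gene of the Ras family, was nearly 2-fold the other way, with 5980 reads in replicate 1 and 3099 in replicate 2, a log2 ratio of 0.96. Both were singled out after their values were seen.

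Of 19 genes for inhibition and turnover, 18 had enough reads. Stub1, a ubiquitin ligase gene, had 291 TPM in replicate 1 and 317 TPM in replicate 2. Spry2, a feedback inhibitor of growth factor signalling, had 143 and 106 TPM, and the ubiquitin ligase gene Nedd4 had 132 and 115 TPM. Lrig3 was lowest with 0.21 and 0.56 TPM. The list of adaptors and kinases had a median of 14.6 TPM in replicate 1 and 14.2 in replicate 2, above the level of each of the 7 members.

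**Figure D5:**
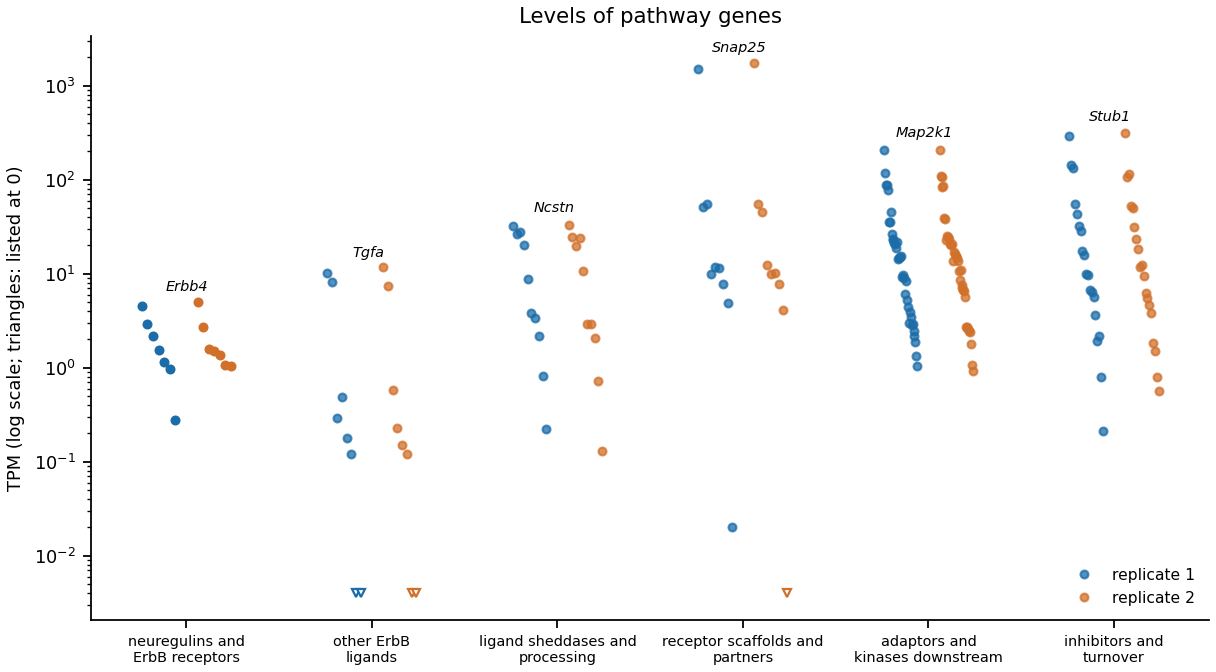
Levels in TPM on a log scale (y axis) of the 7 members and of the 5 lists of other pathway genes (x axis), in replicate 1 and replicate 2 by the first program. Each point is 1 gene, triangles are genes listed at 0, and the highest gene of each group is named. Erbb4, at 4.48 and 4.97 TPM, is the highest member, below Tgfa among the other ligands and far below Map2k1 at 205 and 209 TPM.

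Most markers of the cells in which these genes are known to act lay within 2-fold between the libraries, as did most genes tested. Over all genes tested 2.42% were past 2-fold, so lying within it does not set these markers apart. All 12 genes listed as interneuron markers were within 2-fold, from Cck down to Lhx6 with 4.02 TPM in replicate 1 and 3.21 in replicate 2. Their summed level was 2058 and 2042 TPM, most of it from Cck with 1357 and 1351 TPM. The 10 oligodendrocyte markers summed to 3899 and 4238 TPM, with Ermn lowest at 27.9 and 28.6 TPM. The 6 precursor markers summed to 38.8 and 48.6 TPM, a difference carried mostly by Olig2, with C1ql1 lowest at 1.27 and 1.18 TPM. The 10 astrocyte markers, led by Aldoc with 1291 and 1357 TPM, summed to 2205 and 2193 TPM, with Aldh1l1 lowest at 31.3 and 24.4 TPM. The 9 glutamatergic markers summed to 2368 and 2784 TPM. Of the markers of Schwann cells, which lie outside the brain and depend on Nrg1 and Erbb3, Pmp22 had 36.3 TPM in replicate 1 and 42.9 TPM in replicate 2, and Egr2, also an activity-regulated gene in neurons, was 2-fold higher by reads in replicate 1, with 145 against 59.

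The 8 microglial markers summed to 789 TPM in replicate 1 and 840 TPM in replicate 2, with Tmem119 lowest at 21.49 and 21.01 TPM, and the 8 vascular markers to 279 and 350 TPM, from Cldn5 down to Pecam1 at 7.08 and 7.25 TPM. Among 7 meningeal markers, led by Dcn with 72.1 and 75.8 TPM, Igf2 was over 2-fold higher in replicate 1, while Slc6a13 and Slc22a6 were over 2-fold lower. The 6 thalamic markers, led by Tcf7l2 with 95.9 and 58.6 TPM and ending with Lef1 at 1.69 and 2.34 TPM, were all within 2-fold by reads.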

How the data were processed

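The assembly was mm10 and the annotation M21, per the authors' deposited text. The sources used here name neither program nor version. The deposited tables of the first program hold, per the file headers, expected counts, TPM and FPKM per gene and transcript, with interval bounds of TPM as scores, and those of the second hold estimated counts and TPM per transcript. Rows naming no gene (26345) held 9 and 6.49 reads, or 2.31e-05% and 1.64e-05% of reads, and were left out. Transcript values of the second program were added up per gene. Of 55536 genes, 55450 matched the annotation by identifier.

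Expected counts were scaled by TMM (edgeR 4.0.16, R 4.3.3) and log2 ratios used a prior count of 0.5, with an exact conditional binomial (Clopper-Pearson) 95% interval. Counts were rounded for scaling and intervals. Ratios were read at a mean count of at least 50 and a fold of 2, with no test, as there is 1 group. Programs were compared as log2(TPM + 0.1), over genes with at least 1 TPM by either program in both libraries. The library ratio, its 2-fold call and its counting interval were tested on simulated counts with counting noise only. Transcript shares, exon forms and the comparison of programs were not simulated. Exon forms were found from M21 exon structure, with Python 3.11.15. The rule named all members, transcripts with at least 5% of a gene, the 3 highest and the lowest gene of each pathway list, the highest and lowest of each marker list, and those past 2-fold; a few others are given as values, and a few it names are left out here. Members and lists were chosen with earlier results of these data known. Alternatives were other scalings, count minimums, priors and pseudocounts, FPKM, counts, the second program, leaving out mitochondrial genes, and leaving out each library.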

Additional observations from a re-analysis of the deposited data

How the results depend on the processing

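No paired analysis was possible because the study has 1 group. The number of members past 2-fold between the libraries stayed at 0 under other scalings, priors, count minimums and the second program, and was 1, Nrg2, on the ratio of TPM. The number of pathway genes past 2-fold was 0, and became 1 with relative log expression scaling (Limk1) and 1 with a mean count of at least 10 (Nrg4, at -1.24 on the log2 scale). The Erbb4 share of the members' TPM was 34.0%, was 47.8% in expected counts, and ran from 33.01% to 34.9% with 1 library left out. The leading transcript by TPM held for all 7 genes with the second program and for 6 of 7 by expected counts, and leaving out a library gave 6 to 7. When only complete coding transcripts were ranked it held for 5, with Nrg1-203 and Erbb2-201 leading their genes instead. The count of members past 2-fold between the programs was 0 in each alternative run. Among single genes and transcripts, 77 of the alternative values stayed within the spread or the same side of 2-fold and 14 moved. Nrg1-204, for example, fell to 28.8% of its gene with the second program. The mean TPM of Nrg3, Erbb3, Erbb4 and Egfr moved when mitochondrial genes were left out, which rescales all genes of a library alike. The levels and shares with 1 library left out could not move, since either of 2 values lies within their SD. A reversed call was not possible either, as no member was past 2-fold by reads. Depth limits Nrg2, with 25 and 37 reads, and most single transcripts of Nrg1. The SD of 2 libraries is itself imprecise.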
